A study of Mus musculus with 23 samples.

Results

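Malat1 is a long noncoding RNA that stays in the nucleus. In these CLIP libraries it had more alignments than any other region formed from alignments outside the mitochondrial genome and the ribosomal contig. CLIP (crosslinking and immunoprecipitation) sequences the RNA fragments that ultraviolet light has linked to the proteins an antibody pulls down. The Malat1 locus was taken as chr19:5795690-5802672 of mm9, minus strand, a stretch of 6983 nt, and an alignment was a member when it lay on that strand with its midpoint inside the stretch. A total of 2389 distinct alignments met this rule, or 0.652% of the 366484 distinct alignments of 10 libraries. A distinct alignment is one combination of chromosome, start, end and strand, counted once in each library that holds it. The locus was chosen by its number of alignments in these libraries, so its coverage and rank below are a description with no test.

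Malat1 is transcribed by RNA polymerase II, is retained in nuclear speckles and is not translated. Its 3′ end is not made by ordinary polyadenylation: RNase P cuts the precursor and releases a small tRNA-like RNA, and a triple helix protects the end that remains. Upf1 is a helicase needed for nonsense-mediated decay, a pathway that depends on translation, and it binds RNA with little sequence preference. Cycloheximide blocks translation elongation. An RNA that ribosomes do not read therefore served as a control for changes in the position of alignments in these libraries when translation was stopped. Its rate could not be told from IgG, so its alignments were not shown to be Upf1 binding.

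All libraries came from v6.5 mouse embryonic stem cells grown on mouse embryonic fibroblasts with LIF. The fibroblasts were removed by pre-plating, the cells were kept for a day on gelatin, and crosslinking used 254 nm light at 400 mJ/cm2. Rabbit anti-Upf1 antibody was used for 3 untreated libraries (A1, A2 and I) and for 2 libraries (A1 and A2) from cells given cycloheximide at 100 µg/ml for 2 h. Rabbit IgG, which has no target in the cell, was used for 3 untreated libraries (A1, A2 and I) and 2 cycloheximide libraries (A1 and A2). The labels do not say that the libraries of a group came from separate cultures, so every p-value measures the spread between these libraries, which may be technical. The series also has 10 mRNA-seq and 3 ribosome footprint samples, not analysed here, and stem cell and fibroblast markers were not used here because no mm9 annotation was at hand.

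The 5′ end of the RNA is shown because alignments began close to it. The bases below are nt 21 to 50 of Malat1 from RefSeq on GRCm38.p6, chr19:5802623-5802652 on the minus strand. Capitals mark the bases from nt 38 on, the first base that any alignment covered.
Malat1 nt 21 to 50: gcagagcagcgtagagcAGCACAGCTGAGC
In all, 8 alignments from 6 libraries touched the first 50 nt.

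Libraries differed in depth, read length and independence. Their totals ran from 7215 to 97651 distinct alignments. Reads ended at 34 nt in both untreated I libraries and in Upf1 untreated A1, whereas the other 7 libraries reached 38 nt. Many molecules, meaning an alignment together with the 2 random bases of its adapter, were present in more than 1 library. With only 2 random bases, a match between libraries does not prove a common origin, and how many matches have one was not tested. At Malat1, shared molecules made up 81.4% of IgG untreated A2, 85.6% of IgG cycloheximide A1 and 85.3% of IgG cycloheximide A2. They made up 52.6% of Upf1 untreated A2, 51.8% of Upf1 cycloheximide A1 and 54.6% of Upf1 cycloheximide A2, but only 6.34% to 13.0% of the other 4 libraries. Over the whole library the shares of the 3 IgG libraries were 82.2%, 81.6% and 85.4% in the same order. Those of the 3 Upf1 libraries were lower than at Malat1, at 28.8%, 30.6% and 36.1%, and the other 4 had 0.796% to 7.20%. Of the 90 Malat1 molecules in IgG cycloheximide A1, 54 were also in IgG cycloheximide A2 and 47 in Upf1 cycloheximide A1. Results are therefore also given without the 3 IgG libraries that shared most over the whole library, which removes the whole IgG cycloheximide group.

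Malat1 stood alone in its neighbourhood. No alignment of any library lay on the opposite strand of the locus, and none lay on the same strand in the 6983 nt before its 5′ end or the 6983 nt after its 3′ end. A count of 0 allows up to 3 alignments, or 0.126% of the Malat1 total. The nearest same-strand alignments were 25190 nt beyond the 5′ end and 9746 nt beyond the 3′ end. Reads from the antisense strand and from neighbouring transcripts were thus below that limit.

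Malat1 had more unspliced alignments than any other of the 203381 regions outside the mitochondrial genome and the ribosomal contig, with 2387 against 538 in the next. The comparison is uneven. Malat1 was counted over its whole stretch of 6983 nt, whereas other regions were runs of alignments merged within 50 nt. A gene with gaps between its alignments was thus split, and no correction for length was made. By this count Malat1 ranked first in 9 of 10 libraries. In the exception, IgG untreated A1, it had 33 alignments and the leading region 38. Malat1 thus ranked first in 5 of 5 Upf1 libraries and in 4 of 5 IgG libraries.

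The Malat1 rate, in alignments per 100000 distinct alignments of the library, was 371 in Upf1 untreated A1, 587 in A2 and 703 in I. In the Upf1 cycloheximide libraries it was 749 in A1 and 707 in A2. In the IgG untreated libraries it was 320 in A1, 1354 in A2 and 785 in I. The lowest and the highest rates of the whole set were thus both in IgG untreated, and the Upf1 values lay between them. In the IgG cycloheximide libraries the rate was 1026 in A1 and 1050 in A2, above every Upf1 library. The 95% Wilson intervals, which cover counting error only, were narrowest relative to the rate in the deep library Upf1 untreated I (650 to 760) and widest in IgG untreated A1 (228 to 450, from 33 alignments).

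**Figure D1:**
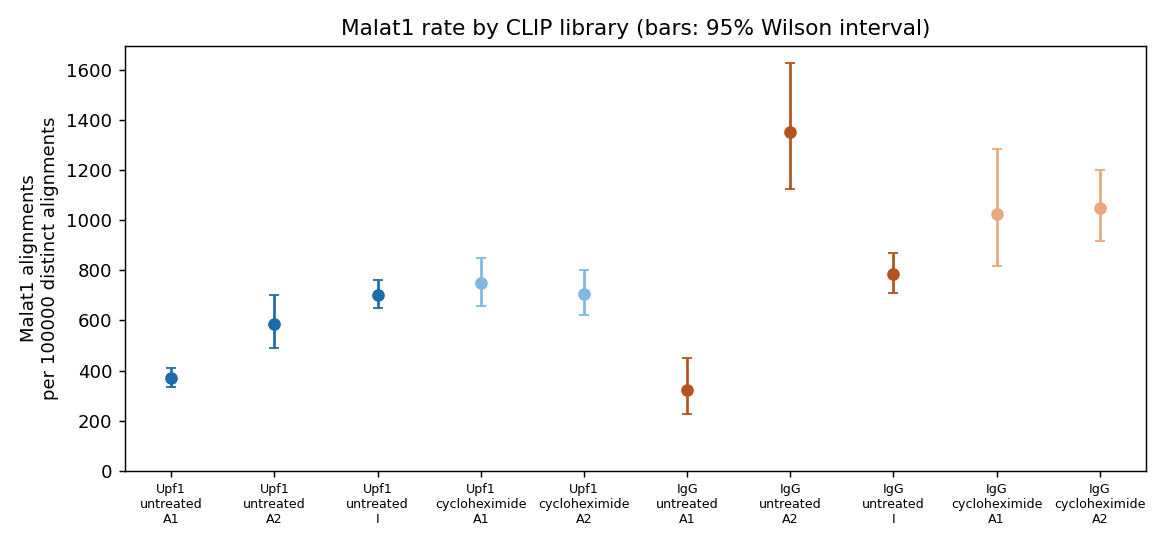
Malat1 alignments per 100000 distinct alignments (y axis) in each of the 10 libraries (x axis), with 95% Wilson intervals as bars. IgG untreated A1 at 320 and IgG untreated A2 at 1354 are the extremes, and the Upf1 libraries lie from 371 to 749.

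Upf1 antibody did not recover Malat1 at a rate that could be told from IgG. The mean rate was 623 ± 153 (SD, n = 5) with Upf1 antibody and 907 ± 385 (SD, n = 5) with IgG. Averaged within treatments, the difference was −0.45 on the log2 scale, or 0.733-fold (exact two-sided permutation test over 120 arrangements, p = 0.25, and 0.49 after Benjamini-Hochberg adjustment over 7 tests). It was −0.38 in untreated cells and −0.51 with cycloheximide. Without the 3 libraries that shared most molecules, the sign turned, with a log2 difference of 0.09 (exact permutation p = 0.80). With all libraries kept but without molecules found in more than 1 library, it was −0.83 (exact permutation p = 0.117, adjusted 0.408). Without IgG untreated A1 the difference was −0.73 (exact permutation p = 0.0333, adjusted 0.117), and without IgG untreated A2 it was −0.21.

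The rate was not shown to change with cycloheximide either. Treated libraries had a mean of 883 ± 180 (SD, n = 4) and untreated libraries 687 ± 374 (SD, n = 6). The difference was 0.51 on the log2 scale, or 1.42-fold (exact two-sided permutation test over 100 arrangements, p = 0.28, adjusted 0.49). The log2 change was 0.44 with Upf1 antibody and 0.57 with IgG, and the difference between these changes, −0.13, was not past the threshold (exact permutation p = 0.88, also 0.88 after adjustment over 4 such tests). Without IgG untreated A2 the change was 0.75 (exact permutation p = 0.0333, adjusted 0.117), and without IgG untreated A1 it was 0.23. These rates are shares of a library, so a change in Malat1 RNA per cell, in its crosslinking or in the rest of the library cannot be told apart.

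Malat1 was then read from a fit over all 2356 regions with enough alignments (limma-voom, TMM scaling). Its log2 difference between Upf1 and IgG was 0.37 ± 0.61 (SE, 95% interval −0.83 to 1.57, adjusted p = 0.999), where the median region was at 0.00. That sign is opposite to the rate above. When the same fit was scaled to library totals, the difference became −0.46, so the direction depends on the scaling, whose factors ran from 0.536 to 2.22 between libraries. The antibody comparison called no region higher (0%) and none lower (0%) by limma-voom, with 34 (1.44%) and 38 regions (1.61%) below 0.05 before adjustment, and the trended limma test also called none. For cycloheximide the log2 difference of Malat1 was 0.68 ± 0.62 (SE, 95% interval −0.54 to 1.90, adjusted p = 0.597), while 6.71% of regions were called higher and 0.849% lower and the median region was at −0.28. In simulated data, 12 of 13 recovered 8-fold changes and 23 of 25 recovered 16-fold changes were increases. Higher and lower calls were thus not equally likely to be found. Before adjustment, 11.7% of regions were higher and 5.35% lower at p under 0.05, and Malat1 was not among them. The fitted value depended on the settings: it was 1.20 with the replicate block (adjusted p = 0.258), 1.05 with 38 nt reads only (adjusted p = 0.150), −0.06 with every line counted and −0.13 with no filter on low counts. Malat1 lay at percentile 73.6 of all regions in the antibody comparison and at percentile 77.7 in the cycloheximide comparison. The cycloheximide change did not differ between antibodies at Malat1 beyond its error (0.35, 95% interval −2.19 to 2.90, adjusted p = 0.970 by limma-voom), and no region was called in that comparison (0% higher, 0% lower, 45 regions or 1.91% and 44 or 1.87% below 0.05 before adjustment, and none by trended limma).

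**Figure D2:**
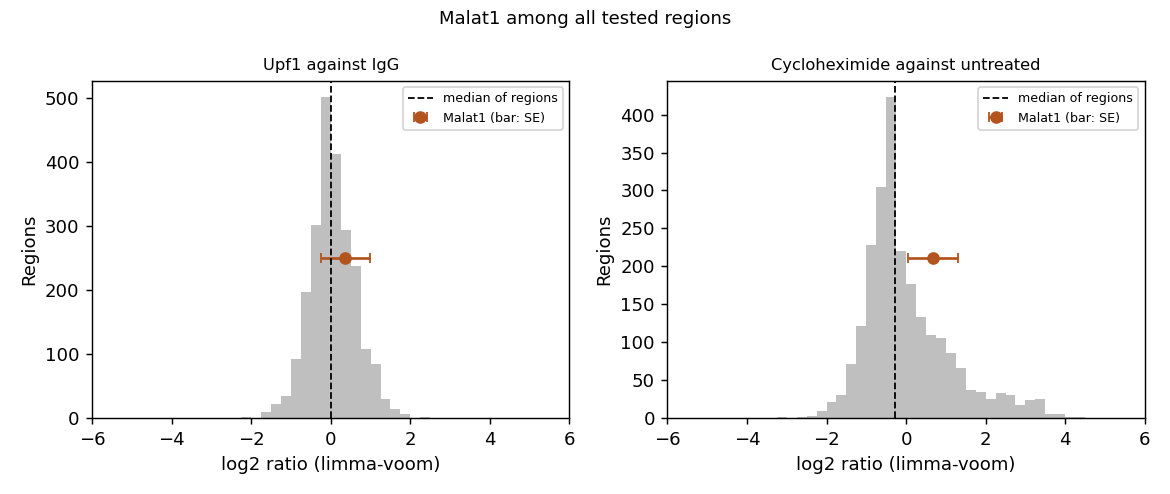
Histogram of the log2 difference of 2356 regions (x axis, log2 ratio; y axis, number of regions) for Upf1 against IgG on the left and cycloheximide against untreated on the right, with Malat1 as a point with its SE. Malat1 lies at 0.37 and 0.68, inside both distributions.

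Alignments covered nearly the whole stretch taken as the locus and were almost absent from its last 300 nt. Where the mature RNA ends, and whether reads can be placed there, was not tested. The last covered base was nt 6846 of 6983. The last 300 nt, which are 4.30% of the length, held 1 alignment (0.0419%), in Upf1 untreated A1. The first 300 nt held 60 alignments (2.51%) from 9 libraries. In 100 nt windows numbered from the 5′ end, window 68 (nt 6701 to 6800) and window 70 (nt 6901 to 6983) were empty in every library, and the other 68 held at least 1 alignment. Window 7 (nt 601 to 700) held only 2 alignments, both in IgG untreated I, although it lies beside the well-covered window 8. Windows 7, 68 and 70 are named here after their values were seen.

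Windows 53 and 65 were among the densest places under both antibodies. In Upf1 untreated the 3 most covered windows were window 8 (nt 701 to 800, 50 alignments), window 53 (nt 5201 to 5300, 45) and window 15 (nt 1401 to 1500, 44) of 1109. In Upf1 cycloheximide they were window 65 (nt 6401 to 6500, 29 alignments), window 15 (28) of 480, followed by windows 6 (nt 501 to 600), 29 (nt 2801 to 2900) and 53 with 24 each. In IgG untreated they were windows 65 (28 alignments), 53 (23) and 8 (22) of 519. In IgG cycloheximide they were windows 53 and 65 with 26 alignments each, followed by window 14 (nt 1301 to 1400, 17), of 281. Windows 8, 15, 29, 53 and 65 held alignments in all 10 libraries, as did several less covered windows. Window 65 led or tied in 3 of the 4 groups. The 5 windows with most alignments over all libraries were 53, 65, 15, 8 and 18 (nt 1701 to 1800). Together they held from 16.9% of the Malat1 alignments in Upf1 untreated A1 to 37.8% in IgG cycloheximide A1.

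**Figure D3:**
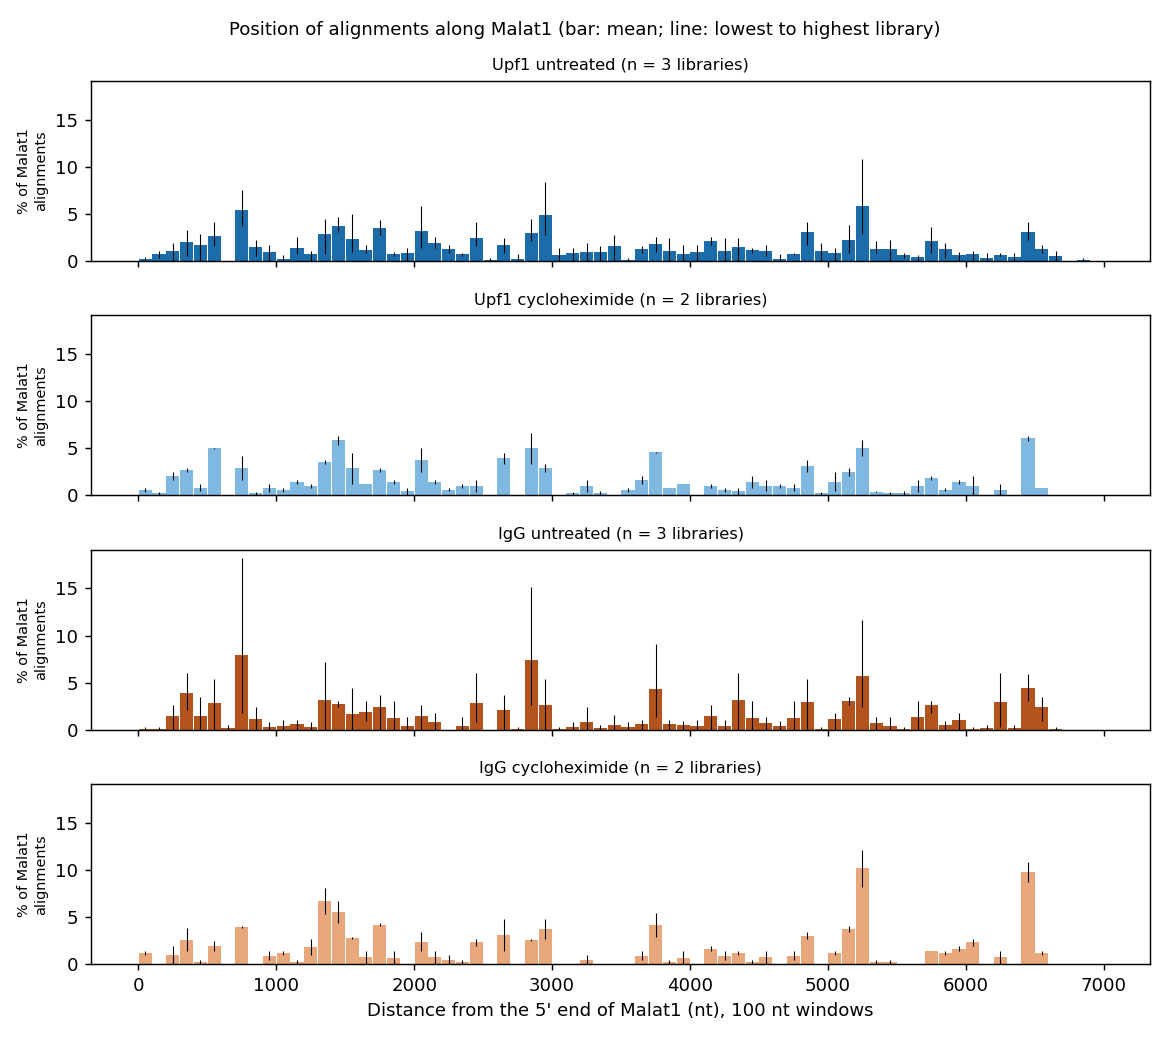
Percent of a library's Malat1 alignments (y axis) in 100 nt windows by distance from the 5′ end in nt (x axis), 1 panel per group; bars are means over libraries and lines run from the lowest to the highest library. Windows 53 (nt 5201 to 5300) and 65 (nt 6401 to 6500) stand above their neighbours in every panel, and the last 300 nt are nearly empty in each.

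Profiles of the 4 groups resembled one another across the 70 windows. Pearson's r between group profiles ran from 0.70 (Upf1 untreated with Upf1 cycloheximide) to 0.85 (Upf1 cycloheximide with IgG cycloheximide). The groups share molecules, so r was also taken without molecules found in more than 1 library, and it then ran from 0.54 to 0.76. Windows share base composition and mappability and are not independent replicates, so no p is given.

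Most single positions were not repeated. Of 1714 distinct start and end pairs at Malat1, 1300 (75.8%) were in 1 library and 30 were in at least 5. A single fragment, nt 6477 to 6510 at chr19:5796163-5796196 of mm9, was in 9 of 10 libraries, and it spans the border of windows 65 and 66. The next, nt 2872 to 2909 at chr19:5799764-5799801, was in 7 libraries. Only 2 alignments at Malat1 were spliced, with genomic spans of 6243 nt in Upf1 untreated A1 and 305 nt in Upf1 untreated I.

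Window by window, no difference along Malat1 passed the threshold. Of the 70 windows, 59 had enough alignments to enter a limma-voom fit over 1786 windows of the genome. For Upf1 against IgG, 0 of 59 were called, where the fit called 0% of all windows higher and 0% lower; before adjustment, 2 of 59 were above 0 and none below it with p under 0.05, beside 2.35% and 0.616% of all windows, and trended limma called none. For cycloheximide against untreated, 0 of 59 were called by limma-voom or trended limma, where 6.49% of all windows were called higher and 1.85% lower. Before adjustment, 6 Malat1 windows were above 0 and 2 below it with p under 0.05, beside 10.2% and 10.3% of all windows.

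The cycloheximide values of the most covered windows had wide errors. Window 65 had 8, 5 and 17 alignments in Upf1 untreated A1, A2 and I and 15 and 14 in Upf1 cycloheximide A1 and A2. It had 1, 5 and 22 in IgG untreated and 8 and 18 in IgG cycloheximide. As a share of the Malat1 alignments it had a mean of 3.03% in Upf1 untreated, 6.04% in Upf1 cycloheximide, 4.46% in IgG untreated and 9.75% in IgG cycloheximide. Within each antibody the treated libraries lay above the untreated ones in windows 65 and 15. They did not in the other most covered windows, 8, 53, 14, 6, 29 and 18. The share of all windows that separate in this way was not taken, so the separation is no result about windows 65 and 15. The log2 difference of window 65 with cycloheximide was 1.42 ± 0.57 (SE, limma-voom adjusted p = 0.109), so it was not called. Window 8 went the other way by −0.22 ± 0.61 (SE, adjusted p = 0.838). Its share in IgG untreated A1, 18.2%, came from 6 of 33 alignments. Window 53 had a log2 difference of 0.95 ± 0.56 (SE, adjusted p = 0.309), window 15 of 1.14 ± 0.59 (adjusted p = 0.245), window 14 of 1.24 ± 0.62 (adjusted p = 0.234), window 6 of 0.93 ± 0.64 (adjusted p = 0.378) and window 29 of 0.33 ± 0.62 (adjusted p = 0.741).

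A few windows were called in some alternatives. With the replicate number as a block and all 10 libraries kept, windows 11 (nt 1001 to 1100), 13 (nt 1201 to 1300) and 65 were called higher with cycloheximide, with log2 differences of 2.31, 2.10 and 1.95 (limma-voom adjusted p = 0.0104, 0.0307 and 0.0382). This setting called 3 of 59 Malat1 windows higher, beside 130 of 1786 windows of the genome. Others were called when 1 library was left out. Without IgG untreated A1, 2 of 59 Malat1 windows were lower, beside 99 of 1728 of the genome. It was 1 of 59 beside 49 of 1571 without Upf1 untreated A2, and 1 of 55 beside 18 of 839 without Upf1 untreated A1. Higher calls were 1 of 50 beside 116 of 1159 without Upf1 untreated I, and 1 of 57 beside 47 of 1583 without Upf1 cycloheximide A1. Window 35 (nt 3401 to 3500) had 10, 0 and 13 alignments in Upf1 untreated A1, A2 and I, 6 in IgG untreated I, and 0 in the other 6 libraries. All 3 libraries with alignments there are the ones with 34 nt reads. Its log2 difference was −1.65 (limma-voom adjusted p = 0.102), and it was called lower at −2.23 without Upf1 untreated A2 (adjusted p = 0.0158) and at −2.24 without IgG untreated A1 (adjusted p = 0.0158). Window 9 (nt 801 to 900) was at −1.59 (adjusted p = 0.121) and was called lower without Upf1 untreated A1 (−2.41, adjusted p = 0.0457) or without IgG untreated A1 (−2.21, adjusted p = 0.0150). Of its 29 alignments, 25 were in the 3 libraries with 34 nt reads. Window 65 was also called higher without Upf1 untreated I (1.80, adjusted p = 0.0158), and window 61 (nt 6001 to 6100) without Upf1 cycloheximide A1 (2.62, adjusted p = 0.0453). The part of read length in these values was not tested.

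The 3′ share of Malat1, the percent of its alignments that lie past the midpoint of the RNA, measures a shift along it. It was 45.3% in Upf1 untreated A1, 35.8% in A2 and 43.7% in I. It was 41.2% and 43.0% in Upf1 cycloheximide A1 and A2. In IgG untreated it was 45.5% in A1, 46.4% in A2 and 45.5% in I. With cycloheximide, IgG gave 52.7% in A1 and 44.0% in A2. Of the 4 treated libraries, 3 lay inside the untreated range and IgG cycloheximide A1 lay above it.

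Cycloheximide therefore did not move Malat1 alignments along the RNA by an amount that could be detected. The difference in the 3′ share was 1.51 percentage points (exact two-sided permutation p = 0.52, adjusted 0.63), with 0.46 points in Upf1 and 2.55 points in IgG. Its sign turned without IgG cycloheximide A1, to −0.68 points. The mean distance from the 5′ end was 3155 ± 207 nt (SD, n = 3) in Upf1 untreated, 3085 ± 84.4 (n = 2) in Upf1 cycloheximide, 3252 ± 38.3 (n = 3) in IgG untreated and 3400.4 ± 161 (n = 2) in IgG cycloheximide. Its difference with cycloheximide was 38.9 nt (exact permutation p = 0.71, also 0.71 adjusted), and it turned to −18.2 nt without IgG cycloheximide A1 and to −17.6 nt without Upf1 untreated A2. Of 3 equal stretches of the RNA, the one at the 5′ end held the most alignments in each group by mean share, from 36.9% ± 3.13 (SD, n = 3) in IgG untreated to 42.9% ± 1.68 (SD, n = 2) in Upf1 cycloheximide.

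Upf1 libraries had a lower 3′ share than IgG libraries before adjustment. The means were 41.8% ± 3.65 (SD, n = 5) and 46.8% ± 3.42 (SD, n = 5), and the ranges overlapped, from 35.8% to 45.3% and from 44.0% to 52.7%. Averaged within treatments the difference was −5.21 points (exact two-sided permutation p = 0.0167, adjusted 0.07), which does not pass 0.05. With 1 library left out it ran from −7.40 to −3.03 points, the smaller value without IgG cycloheximide A1 (exact permutation p = 0.0667). Without the 3 libraries that shared most molecules it was −3.84 points (exact permutation p = 0.50), and over the alternatives the adjusted p ran from 0.0875 to 0.875.

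The shift for which Malat1 was taken as a control is given here as a description with no test, since it was known when Malat1 was chosen. Alignments within 2000 nt of spliced spans were used as the comparison: each spliced alignment of up to 20000 nt marks a span of a processed transcript, and the 3′ side share is the percent of unspliced alignments in or beside spans that lie downstream of one. The 3′ side share was 69.2%, 61.2% and 58.5% in Upf1 untreated A1, A2 and I, and 42.5% and 40.3% in Upf1 cycloheximide A1 and A2. With IgG it was 46.1%, 51.6% and 62.5% in the untreated libraries A1, A2 and I. In the treated IgG libraries it was 40.9% in A1 and 45.1% in A2. Every treated library was below every untreated one. The closest pair was IgG untreated A1 at 46.1%, from 360 alignments, and IgG cycloheximide A2 at 45.1%, from 2810. Both treated IgG libraries share most of their molecules with other libraries, so the 4 treated values are not separate observations.

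The mean 3′ side share was 63.0% in Upf1 untreated, 41.4% in Upf1 cycloheximide, 53.4% in IgG untreated and 43.0% in IgG cycloheximide. At Malat1 the mean 3′ share was 41.6%, 42.1%, 45.8% and 48.3% in the same order. The 3′ share of a locus and the 3′ side of a span are different measures, and a small shift at Malat1 could have gone undetected. The smallest shift that could be detected there was not tested.

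**Figure D4:**
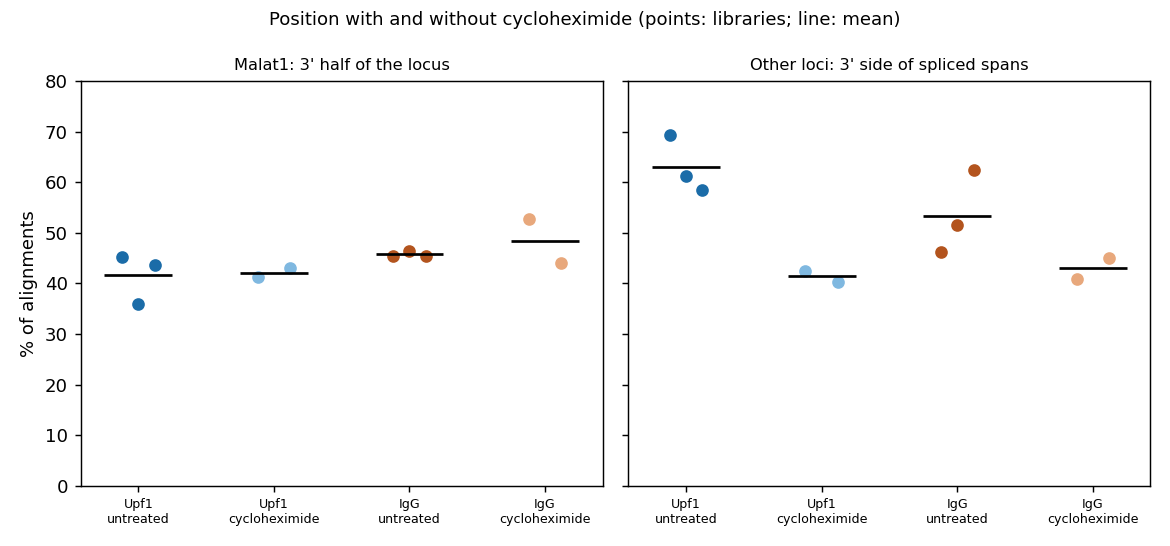
Percent of alignments (y axis) past the midpoint of Malat1 on the left and on the 3′ side of spliced spans at other loci on the right, by group (x axis); points are libraries and lines are group means. At the other loci the cycloheximide libraries lie at 40.3% to 45.1%, below all untreated libraries, whereas at Malat1 treated and untreated libraries overlap.

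Short fragments made up more of the Malat1 alignments in every treated library than in any untreated one, and the same held in the rest of the library. The share of Malat1 alignments shorter than 30 nt was 18.0% in Upf1 untreated A1, 25.8% in A2 and 14.2% in I, and 45.8% and 45.9% in Upf1 cycloheximide A1 and A2. It was 36.6% in IgG untreated A2, 12.3% in I, and with cycloheximide it was 45.9% in IgG A1 and 50.2% in IgG A2. IgG untreated A1 had 0 of 33 short alignments, for which the Wilson interval reaches 10.4%. The groups did not overlap.

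The short share was 29.1 points higher with cycloheximide (exact two-sided permutation p = 0.02, adjusted 0.07 over 7 tests), with 26.5 points in Upf1 and 31.8 points in IgG. Most molecules of the treated IgG libraries were also in other libraries, so the changes in Upf1 and IgG are not separate observations. Leaving out the 3 libraries that shared most keeps the Upf1 change alone. By exact permutation its p was then 0.1, the lowest that so few libraries allow, and 0.7 once adjusted. With all libraries kept but without molecules found in more than 1 library, the change was 31.8 points (exact permutation p = 0.02, adjusted 0.14). Outside Malat1 the short share was 31.1 points higher (exact permutation p = 0.02). The change at Malat1 minus that in the rest of the library was −1.94 points (exact permutation p = 0.54, adjusted 0.63), and it turned to 0.27 points without IgG cycloheximide A1. Both untreated A2 libraries, which also share many molecules with treated ones, had the highest short shares among untreated libraries, at Malat1 and in the rest (31.6% and 39.7%). Among libraries with 38 nt reads the difference was 24.9 points (exact permutation p = 0.0556). The treated libraries all have 38 nt reads and 3 of the 6 untreated libraries have 34 nt reads, and the part of read length in the difference was not tested beyond that value.

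**Figure D5:**
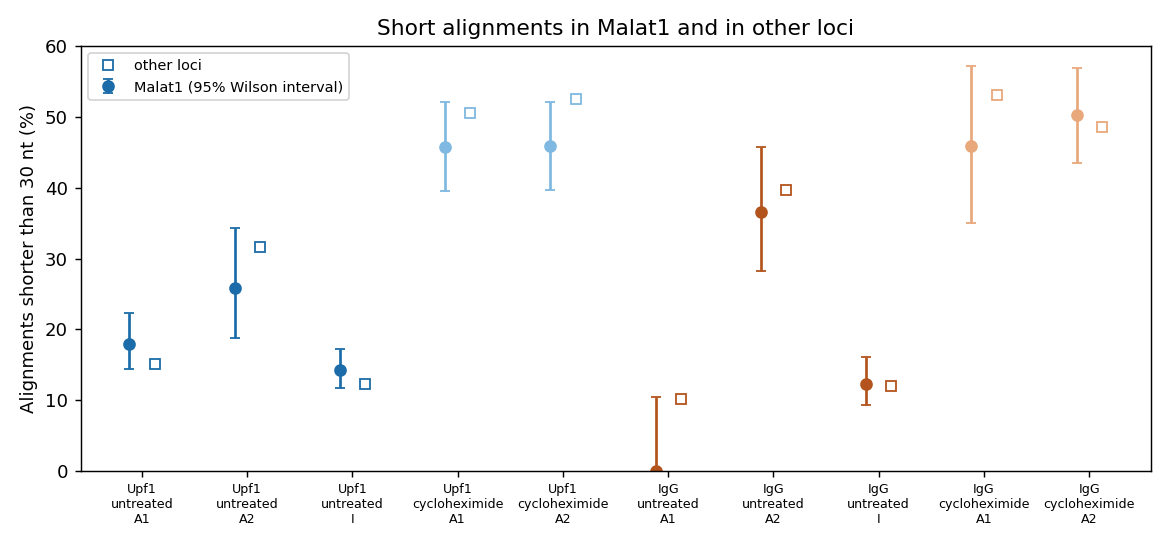
Percent of alignments shorter than 30 nt (y axis) in each library (x axis); filled points are Malat1 with 95% Wilson intervals and open squares the other loci. The cycloheximide libraries lie at 45.8% to 50.2% for Malat1 and at 48.6% to 53.2% for the other loci.

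Copies were unevenly spread. IgG untreated A1, the library with the lowest Malat1 rate, had 2040 deposited lines on its 33 Malat1 alignments, or 61.8 lines per alignment, against 22.1 over the whole library. The other 9 libraries had 1.26 to 2.64 lines per Malat1 alignment. Counted as molecules, Malat1 had 4.58 per alignment in IgG untreated A1 and 1.21 to 1.70 elsewhere. In 9 of the 10 libraries this ratio was higher at Malat1 than over the library as a whole, the exception being IgG untreated I.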

How the data were processed

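CLIP libraries were deposited by the authors as BED alignments on mm9 and a ribosomal contig, not pooled. The score field is a constant 255 in every deposited line and was not used. Per the labels' protocols, the 5′ adapter carried 2 random bases to filter PCR copies. Per the submitters' processing notes, TopHat 1.4.0, Cufflinks 1.3.0 and Bowtie 0.12.6 were used, with no role given; filters were not given in the sources used here.

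Each distinct alignment was counted once per library (366484 of 833047 lines). Alignments spanning over 60 nt were taken as spliced. Locus values were tested by exact two-sided permutation, antibody labels within treatment or treatment labels within antibody, with Benjamini-Hochberg adjustment. Regions merged within 50 nt, and 100 nt windows, with at least 10 alignments over at least 3 libraries, were tallied and fitted with limma 3.58.1 (voom, antibody and treatment terms, TMM scaling); adjusted p under 0.05 was called. On simulated data for the cycloheximide comparison over 2356 regions, 3 of 50 regions changed 2-fold were recovered, 1 of 50 changed 4-fold, 13 of 50 changed 8-fold and 25 of 50 changed 16-fold, with 3 false calls. The changed regions were drawn at random, and as many were raised as lowered. Of those recovered, increases were 0 of 3, 1 of 1, 12 of 13 and 23 of 25 in the same order. R 4.3.3, Python 3.11.15 and scipy 1.17.1 were used. The sequence comes from 1 matching RefSeq promoter entry. Windows named are the 3 most covered of each group, the 5 most covered over all libraries and any past the threshold. Regions named as most like Malat1 are the 5 with the highest correlation. The locus, lists and tests were chosen with earlier results of these data known. Noncoding RNAs other than Malat1 were not used here, since no mm9 annotation was at hand.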

Additional observations from a re-analysis of the deposited data

Results flagged for a closer look

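The mean position of Malat1 alignments moved in opposite directions in the 2 antibodies under cycloheximide, by −70.6 nt in Upf1 and 148 nt in IgG. The difference of −219 nt did not pass the threshold (exact permutation p = 0.24, adjusted 0.88 over 4 tests), and each antibody has only 2 treated libraries.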

How the results depend on the processing

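Depth limits most values: Malat1 had 33 to 627 alignments per library, and few 2-fold or 4-fold changes were recovered in simulated data. Of the 7 locus results, the Malat1 rate with cycloheximide, the 3′ share between antibodies and the short share with cycloheximide kept their direction in all 18 alternatives. None passed the threshold in any, but some could not: the smallest possible p was 0.0556 with 38 nt reads, 0.0625 for cycloheximide with the block and 0.1 without the 3 libraries named below, before adjustment. The causes of the changes below were not tested.

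Counting distinct molecules turned the cycloheximide difference of the 3′ share to −0.963 points and that of the mean position to −78.9 nt. Libraries with 38 nt reads turned the short share minus the rest to 1.94 points. Leaving out together the 3 libraries that share most molecules, an alternative chosen after seeing the data, turned the antibody difference of the rate to 0.0929 and the mean position to −70.6 nt. Leaving out 1 library at a time, the 3′ share with cycloheximide ran from −0.677 to 3.69 points, the mean position from −18.2 to 96.0 nt and the short share minus the rest from −4.14 to 0.267 points.

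The fitted log2 difference of Malat1 between antibodies was −0.11 with every line counted, −0.46 with library totals and −0.0620 to 0.718 with 1 library left out. It was 0.97 without shared molecules, 0.93 with no filter and 0.84 without the 3 libraries. With cycloheximide it was −0.0607 with every line counted and −0.13 with no filter, and also 0.16 without shared molecules, 1.05 with 38 nt reads, 1.20 with the replicate block and 0.32 to 1.06 with 1 library left out. Its adjusted p was at least 0.150. The difference of the cycloheximide change was −0.11 with library totals, −0.33 with no filter and −0.41 to 1.07 with 1 library left out, below 0 without IgG cycloheximide A1 (−0.17) or IgG untreated I.

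The cycloheximide comparison called 178 regions, but 1 with every line counted, 27 without shared molecules, 0 with no filter, 0 of 477 with 38 nt reads and 22 without the 3 libraries. With 1 library left out it called 50 (Upf1 cycloheximide A2) to 321 (IgG untreated A1), with 58 without Upf1 cycloheximide A1, 109 or 110 without either IgG cycloheximide library. It called 149 windows, but 0 with every line counted, 12 without shared molecules, 59 with library totals, 0 with no filter, 0 with 38 nt reads and 14 without the 3 libraries. With 1 left out there were 46 to 206 windows. The antibody comparison called 0 regions, but 3 with library totals and 0 to 1 with 1 library left out, and 0 windows, but 16 without the 3 libraries and 0 to 2 with 1 left out.

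Whether same-numbered libraries pair was not settled. Their deviations from the group means correlated at −0.17 to 0.42, mostly above 0, and libraries of different number were not compared in this way. With the replicate block, the antibody difference of the rate was −0.436 (exact permutation p = 0.188), that of the 3′ share −5.00 points (p = 0.0625) and the short share difference 26.9 points (p = 0.125). The block called 191 regions and 143 windows with cycloheximide and 2 windows between antibodies. At Malat1 it called windows 11, 13 and 65 higher with cycloheximide (log2 2.31, 2.10 and 1.95). These are 3 of 59 Malat1 windows, beside 130 of 1786 windows of the genome called higher.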

Other observations

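Among 47 other regions with at least 100 alignments, the 5 whose rate followed Malat1 most closely over the 10 libraries, by Pearson's r of log2 rates, were the following. The closest was chr9:110842108-110842669 on the minus strand (r = 0.82, 130 alignments), with a mean of 32.8 alignments per 100000 in Upf1 untreated and 64.4 in IgG cycloheximide. The next were chr11:87864127-87864904 on the plus strand (r = 0.75) and chr1:88253535-88253839 on the minus strand (r = 0.73). The last of these 3 had a mean rate of 10.2 in Upf1 untreated, 69.7 in Upf1 cycloheximide, 25.6 in IgG untreated and 144 in IgG cycloheximide. They were followed by chr18:35063655-35064248 (r = 0.71) and chr11:87793271-87794959 (r = 0.62), both on the minus strand. The median r of the 47 regions was 0.18. The libraries share molecules and differ in depth, so these values describe likeness over the set and carry no p. Coordinates are of mm9, and the genes at these places were not looked up because no mm9 annotation was at hand.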
